A study of Mus musculus with 4 samples.

Results

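The hnRNP and SR genes encode 2 large families of RNA-binding proteins that act on nascent transcripts and set which exons are kept. Members were the rows of the deposited expression table whose gene symbol begins with Hnrnp, Hnrp, Srsf or Sfrs followed by a letter or digit. This gave 32 genes of 23235 symbols in the table, 20 with an hnRNP name and 12 with an SR name, each with a single locus. The symbols are spelled as in the table, so that Hnrpdl, Hnrpll and Sfrs18 are the genes now called Hnrnpdl, Hnrnpll and Pnisr.

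RNA was measured in 2 subsets of B cells from C57BL/6 mouse spleen. The B10+ cells carried Cd5, had high Cd1d and made Il10, which encodes interleukin 10, a cytokine that dampens inflammation. The B10- cells lacked all 3 of these, Il10, Cd5 and Cd1d. Both subsets came from cells cultured 48 h with antibody to Cd40, with LPS, PMA and ionomycin added over the final 5 h, so no resting cells were compared. Each subset has 2 libraries, with 1 library from culture 1 and 1 from culture 2. The sources used here do not give the age and sex of the animals or whether spleens were pooled. The subsets differ in 3 sort features at once, and their parts in any difference cannot be told apart.

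As background, SR proteins carry RNA-recognition motifs and a tail rich in arginine and serine, and they mostly promote the use of the exons they bind. Kinases of the Srpk and Clk families phosphorylate that tail, and transportin 3 brings SR proteins into the nucleus. hnRNP proteins coat nascent RNA, often oppose exon use, and several also act on mRNA export, stability and translation. Many genes of both families limit their own output by including an exon with an early stop codon, which sends the transcript to nonsense-mediated decay. In lymphocytes hnRNP proteins are known for the splicing of Ptprc, which encodes Cd45, and of immunoglobulin heavy chain transcripts.

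Transcripts of the decay class are annotated for most of the SR genes measured here. In the GENCODE M21 annotation, 10 of 11 SR genes and 10 of 20 hnRNP genes that passed the filter on low values have at least 1 transcript of the nonsense-mediated decay class, against 30.8% of 8936 tested protein-coding symbols. The members also have more annotated transcripts of any class, with a median of 8 against 5 for those symbols. The part of this in the shares was not tested. The deposited values are per gene, so a productive and a decayed transcript of the same gene cannot be told apart in them. Examples were read from GENCODE M21 transcripts on GRCm38. Each is an exon that overlaps no exon of a protein-coding transcript of its gene, from its first base to the early stop codon in capitals.

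Srsf3, exon at chr17:29039454-29039909, plus strand: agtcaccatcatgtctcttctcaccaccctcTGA
Srsf7, exon at chr17:80204622-80205081, minus strand: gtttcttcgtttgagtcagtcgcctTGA
Hnrnpl, exon at chr7:28817335-28817404, plus strand: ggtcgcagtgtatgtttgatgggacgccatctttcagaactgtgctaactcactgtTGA
Hnrpll, exon at chr17:80044940-80045022, minus strand: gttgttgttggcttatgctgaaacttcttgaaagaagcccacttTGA

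The Srsf3 and Srsf7 exons span 456 and 460 bases, and those of Hnrnpl and Hnrpll 70 and 83 bases. The first 3 belong to genes measured at 80 FPKM or more in every library, while Hnrpll was a low gene.

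The values are the authors' FPKM, which scale fragments for transcript length and library size. Between 9568 and 10132 entries reached 1 FPKM in a library. The libraries were less alike near 0. In the B10+ library of culture 1, 19.4% of entries were listed at 0, against 34.5% to 37.3% in the others. The depth of the libraries is unknown, so no counting error can be given. As a check of the labels, Il10 was at 1683 and 2329 FPKM (B10+, cultures 1 and 2) and 9.26 and 9.62 FPKM (B10-), and Cd5 at 2.38 and 2.63 FPKM (B10+) and 0.278 and 0.563 FPKM (B10-). Of 6 B cell markers, 2 were higher and 2 lower in B10+ cells in both cultures. Cd79a was at 25.9 and 31.4 FPKM (B10+) and 20.8 and 8.04 FPKM (B10-). Cd79b was at 116 and 11.5 FPKM (B10+) and 105 and 2.34 FPKM (B10-). Cd22 was among the lower, at 16.5 and 9.47 FPKM (B10+) and 36.5 and 11.8 FPKM (B10-). Ms4a1 and Pax5 differed in direction between the cultures. Ms4a1 was at 195 and 66.7 FPKM (B10+) and 253 and 65.5 FPKM (B10-). Pax5 was at 20.9 and 41.6 FPKM (B10+) and 24.1 and 38.7 FPKM (B10-). The 4 granulocyte markers summed to less than 0.3 FPKM in every library, with S100a8 and S100a9 at 0 throughout. The 4 erythroid markers summed to 29.1 and 44.7 FPKM (B10+) and 39.7 and 81.8 FPKM (B10-), nearly all from Hbb-b1, and their part in the results was not tested. On the log2 scale libraries of culture 1 correlated at 0.965 and those of culture 2 at 0.947 across entries, while the pairs of B10+ and of B10- libraries correlated at 0.840 and 0.836. Each comparison is therefore given within each culture. The second sheet of the deposited workbook calls the cultures batches.

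Summed over the family, the level was close between the subsets. The 32 genes together held 4552 and 4721 FPKM (B10+, cultures 1 and 2) and 4507 and 5033 FPKM (B10-), so that the B10+ sums were 1.01 and 0.938 times the B10- sums. The 12 SR genes held 1659 and 1693 FPKM (B10+) and 1669 and 1793 FPKM (B10-). The 20 hnRNP genes held 2893 and 3028 FPKM (B10+) and 2839 and 3240 FPKM (B10-). These sums include the Hnrnpa1 row, whose locus is shared with other rows, as described below. Without it the other 19 hnRNP genes held 2886 and 3007 FPKM (B10+) and 2783 and 3014 FPKM (B10-). Their B10+ sums were 1.04 and 0.997 times the B10- sums. The sums of the 8 proliferation markers were 760 and 241 FPKM (B10+) and 370 and 11.1 FPKM (B10-), and all 8 were higher in B10+ cells in both cultures. In these bulk libraries fewer cells expressing a gene and less RNA of it per cell cannot be told apart.

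**Figure D1:**
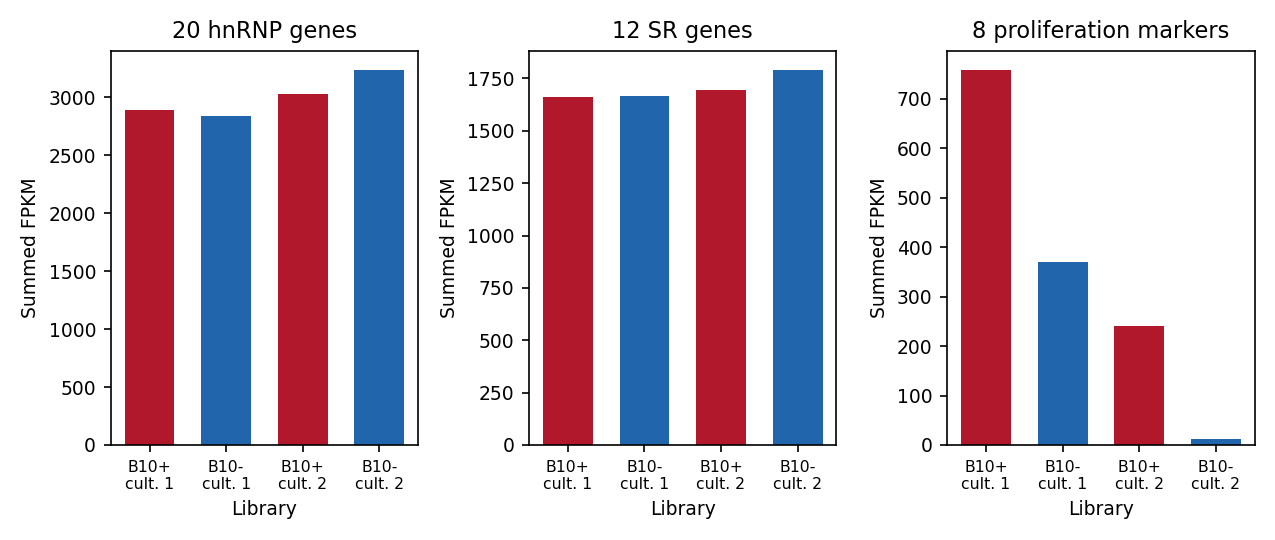
Summed FPKM of the 20 hnRNP genes, the 12 SR genes and 8 proliferation markers in each library, with B10+ bars in red and B10- bars in blue and 1 library per bar. The hnRNP sums, which include the Hnrnpa1 row, lie between 2839 and 3240 FPKM. The SR sums lie between 1659 and 1793 FPKM, while the proliferation markers run between 11.1 and 760 FPKM.

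Most single members also lay close between the subsets. The test took genes with 1 FPKM or more in at least 2 libraries, and 31 of the 32 members passed this filter. Srsf12 did not, and stayed below 0.11 FPKM in every library. On the log2(FPKM + 1) scale, which understates the change of low genes, 27 of 31 tested members differed by less than 1.5-fold between subsets in both cultures, against 76.9% of all 10367 tested entries. Among entries with a mean of at least 50 FPKM the count was 21 of 24 members, against 76.3% of 2006 entries. The median log2 difference (B10+ minus B10-) was -0.08 in culture 1 and -0.05 in culture 2 over the members, and -0.01 and 0.02 over all tested entries.

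The direction was shared by both cultures for 23 members. Of the 31 tested members 9 were higher and 14 lower in B10+ cells in both cultures, against 33.4% and 31.8% of all tested entries. The 2 families differed in this count: 8 hnRNP genes and 1 SR gene were higher, and 10 hnRNP genes and 4 SR genes were lower, a difference that was not tested. Both B10+ libraries lay above both B10- libraries for 5 members, Hnrnpa0, Hnrnpa2b1, Hnrnpab, Hnrnpm and Hnrpll, against 6.6% of entries. For Hnrpll this place is partly set by the filter, which it passed through its B10+ libraries alone. Both lay below for 3 members, Hnrnpa1, Hnrnph1 and Hnrnph2, against 7.47% of entries. No SR gene had groups that did not overlap.

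The test was limma-trend, with p-values adjusted by Benjamini-Hochberg across every tested entry. Without the culture in the model it called 0 of 31 members, and 0.0% of all entries. At an unadjusted p under 0.05 that fit held 2 members, Hnrnpa1 and Hnrpll, and 118 entries in all (1.14%). Hnrpll entered the test through its B10+ libraries alone, so its p is partly set by the filter. With culture as replicate block, the calls in B10+ cells were 0.781% of entries higher and 0.0772% lower. Of the members 0 were called higher and 1 was called lower, the row named Hnrnpa1. For the 29 members other than Hnrnpa1 and Hnrpll, the 95% intervals of the log2 difference in this fit lay between -0.86 and 0.94. Only Hnrnph2 of these 29 had an interval that did not include 0. A p that misses the threshold with 2 cultures does not show that levels were equal.

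**Figure D2:**
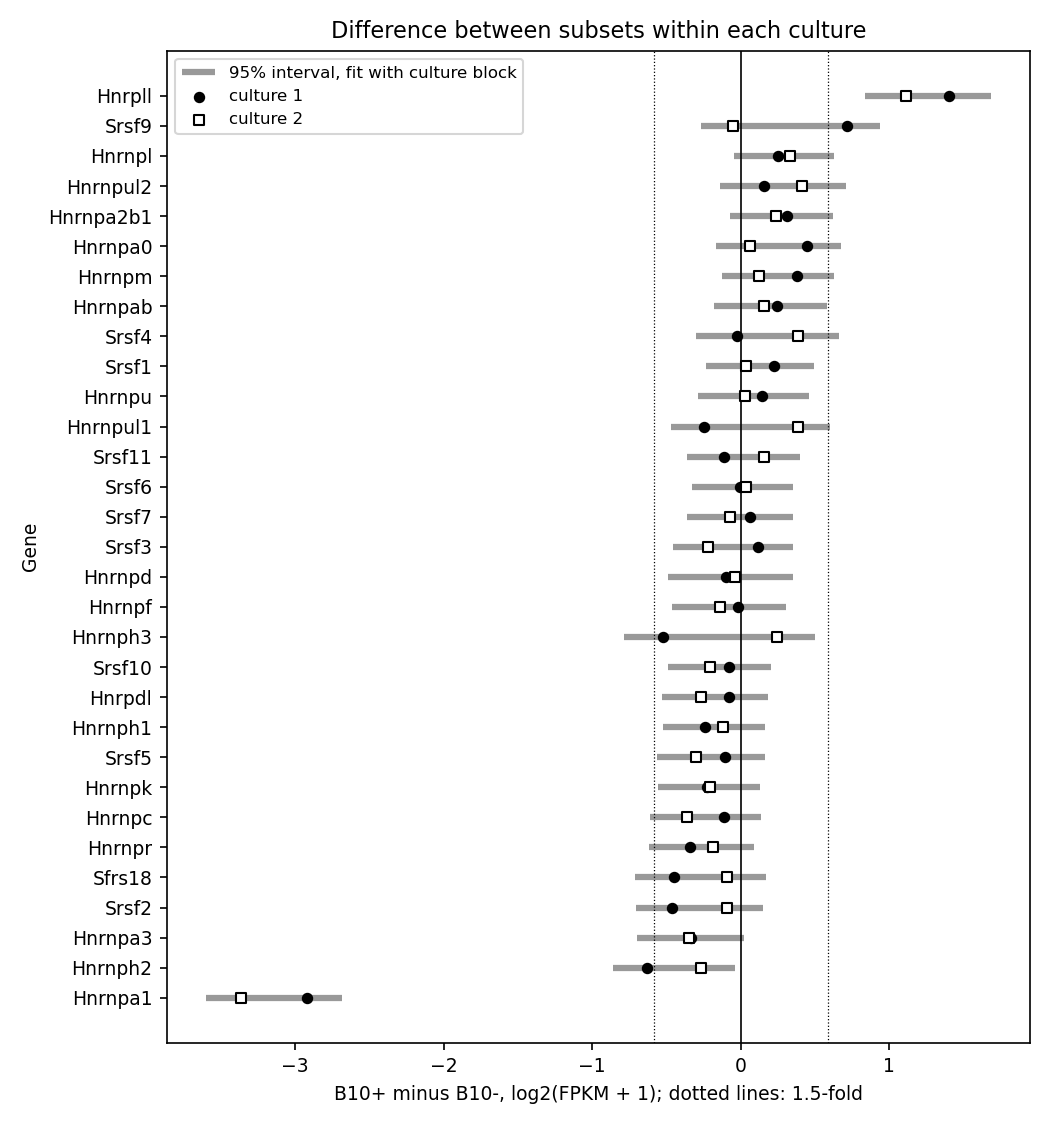
Log2 difference in FPKM + 1 between B10+ and B10- libraries for each tested gene, with culture 1 as filled circles, culture 2 as open squares and the 95% interval of the fit with the culture block as grey bars. Most genes lie within the dotted lines at 1.5-fold; Hnrpll lies to the right at 1.40 and 1.11 and the Hnrnpa1 row to the left at -2.92 and -3.36.

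The Hnrnpa1 row shares its place in the genome with other rows. Hnrnpa1 is an abundant nuclear protein that represses exons and binds many mRNAs. Its row (mm9, chr15:103070863-103075386) was at 6.55 and 21.03 FPKM (B10+, cultures 1 and 2) and 56.1 and 226 FPKM (B10-). Both B10+ values lay below both B10- values, with a log2 difference of -3.14 ± 0.32 (SD, n = 2 cultures). The limma adjusted p was 0.99999 without the culture and 0.026 with culture as replicate block.

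The table places the predicted genes Gm5643 and Gm10052 at the same locus, where they cover 99.5% and 91.8% of the Hnrnpa1 span. RefSeq (GRCm38) lists both as transcribed pseudogenes elsewhere, Gm5643 on chromosome X and Gm10052 on chromosome 9. Their GENCODE transcripts are near copies of the Hnrnpa1 coding sequence of 963 bases. Gm10052 matched it at 960 of 960 aligned bases, and Gm5643 at 950 of 962 aligned bases with 12 mismatches. The 120 coding bases with the most mismatches to Gm5643 are shown, from coding base 8 to base 127 of Hnrnpa1, with capitals where the 3 sequences are not all the same.

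Hnrnpa1, chromosome 15: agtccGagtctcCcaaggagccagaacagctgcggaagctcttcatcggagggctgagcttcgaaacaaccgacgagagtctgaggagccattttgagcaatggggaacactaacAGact
Gm5643, chromosome X: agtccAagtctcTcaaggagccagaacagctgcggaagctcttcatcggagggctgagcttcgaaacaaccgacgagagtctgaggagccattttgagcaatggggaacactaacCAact
Gm10052, chromosome 9: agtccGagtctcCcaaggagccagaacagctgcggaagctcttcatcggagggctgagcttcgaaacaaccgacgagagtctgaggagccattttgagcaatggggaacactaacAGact

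Gm5643 has 4 mismatches in this window and Gm10052 has 0. The longest stretch of Gm5643 without a mismatch to Hnrnpa1 was 280 bases. How reads with several matches were handled is a step that the sources used here do not give.

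The rows at the locus did not share a direction in culture 2. Gm5643 on chromosome 15 was at 98.0 and 235 FPKM (B10+, cultures 1 and 2) and 136 and 12.5 FPKM (B10-). Gm10052 was at 0.00 and 2.20 FPKM (B10+) and 0.00 and 5.67 FPKM (B10-). The Hnrnpa1 row held 6.27% and 8.13% of the FPKM at the locus in the B10+ libraries, against 29.2% and 92.5% in the B10- libraries. Added together, the 3 rows held 105 and 259 FPKM (B10+) and 192 and 244 FPKM (B10-), so that the B10+ sums were 0.543 and 1.06 times the B10- sums. The sum was thus lower in B10+ cells in culture 1 and slightly higher in culture 2. With the sum in place of the Hnrnpa1 row, the log2 difference was -0.40, and limma gave an adjusted p of 0.517 under the replicate block.

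A second Gm5643 row on chromosome X (mm9, chrX:138732048-138733780) was at 43.7 and 87.4 FPKM (B10+) and 82.6 and 94.3 FPKM (B10-). With this row added, the 4 rows summed to 148 and 346 FPKM (B10+) and 275 and 338 FPKM (B10-). The call held for the Hnrnpa1 row alone and not for the sum at its locus, and how the authors' software divided reads between these rows was not tested. Another predicted gene of this kind, Gm6793, overlaps Hnrnpa3, and its row was at 0.00 FPKM in all 4 libraries, so the Hnrnpa3 row held the whole signal there. The remaining overlaps were with separate genes. Agxt2l2 overlaps Hnrnpab and lay between 15.6 and 23.4 FPKM, and Rmi1 overlaps Hnrnpk by 269 bases and lay between 6.56 and 9.07 FPKM. Rufy2 overlaps Hnrnph3 and, at 3.82 to 4.80 FPKM, was above it in every library. 4930528A17Rik overlaps Sfrs18 and lay between 0.827 and 1.74 FPKM. Strand is not stated for these libraries, so reads in the shared bases cannot be told apart.

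**Figure D3:**
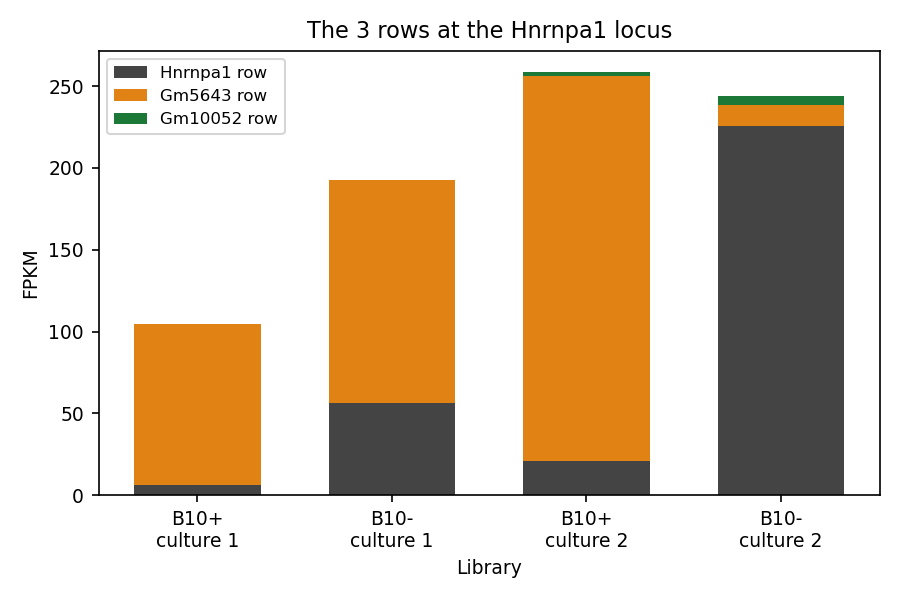
FPKM of the 3 rows that the table places at the Hnrnpa1 locus, stacked for each library. The Hnrnpa1 part (dark) is small in both B10+ libraries and fills 92.5% of the bar in B10- cells of culture 2, while the whole bars of culture 2 stand at 259 and 244 FPKM.

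Hnrpll had the largest difference among the members higher in B10+ cells. It binds CA-rich RNA, silences exons of Ptprc in activated T cells and takes part in immunoglobulin mRNA processing in plasma cells. It was at 2.50 and 1.43 FPKM (B10+, cultures 1 and 2) and 0.321 and 0.125 FPKM (B10-) (mm9, chr17:80428827-80461674). The B10+ level was thus 7.78 and 11.5 times the B10- level, from low values in all libraries.

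The log2 difference of Hnrpll was 1.26 ± 0.21 (SD, n = 2 cultures), and its 95% interval with the culture block was 0.83 to 1.68. The limma adjusted p was 0.99999 without the culture and 0.0674 with the replicate block, so Hnrpll passed the threshold in neither. It passed the filter on low values through its B10+ libraries alone. On the log2(FPKM + 1) scale a difference past 2-fold in both cultures was seen upward in B10+ cells for 1 member, Hnrpll (2.28% of tested entries), and downward for 1 member, Hnrnpa1 (0.241% of tested entries). The paralog Hnrnpl, which also binds CA-rich RNA, was at 131 and 103 FPKM (B10+) and 110 and 81.8 FPKM (B10-).

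Some markers of other cells and of proliferation were also higher in B10+ cells. In both cultures B10+ cells had the higher value for 6 of the 8 T cell markers, with sums of 10.4 and 8.20 FPKM (B10+) and 10.5 and 3.70 FPKM (B10-). Most of that sum was Lck. Cd3e, Cd3g, Cd4 and Trat1 had 1.14 FPKM or less in the B10+ libraries and were listed at 0 in each B10- library. The B10+ library of culture 1 had the smallest share of entries listed at 0, as given above. The 4 NK cell markers summed to 1.99 and 2.42 FPKM (B10+) and 0.837 and 0.292 FPKM (B10-), with Ncr1 at 0 throughout. Gzmb made up most of the B10+ sums, and Prf1 was lower in B10+ cells in both cultures, so that 1 of these 4 markers was higher and 1 lower. The 7 macrophage and monocyte markers summed to 9.03 and 7.72 FPKM (B10+) and 8.59 and 5.12 FPKM (B10-). Only 1 of these 7, Emr1, was higher in B10+ cells in both cultures, and 0 were lower in both. Emr1 was at 2.58 and 2.55 FPKM (B10+) and 0.836 and 0.220 FPKM (B10-). Cd68, most of the sum, differed in direction between the cultures. The proliferation markers were higher as given above. The part of any of these in the Hnrpll difference was not tested.

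Among the other hnRNP A and B genes, Hnrnpa2b1, Hnrnpab and Hnrnpa0 were higher in every B10+ library than in any B10- library. Hnrnpa2b1, which also sorts RNA for transport, was at 246 and 272 FPKM (B10+, cultures 1 and 2) and 198 and 230 FPKM (B10-). Hnrnpab was at 550 and 581 FPKM (B10+) and 463 and 521 FPKM (B10-). Hnrnpa0, which binds AU-rich mRNA, was at 110 and 102 FPKM (B10+) and 80.2 and 97.8 FPKM (B10-). The log2 differences of these 3 were 0.27 ± 0.05, 0.20 ± 0.06 and 0.25 ± 0.27 (SD, n = 2 cultures), with limma adjusted p between 0.401 and 0.533 with the replicate block. Under quantile normalization the difference of Hnrnpab was 0.0652.

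Hnrnpa3 went the other way by about the same amount in both cultures. It was at 14.3 and 62.8 FPKM (B10+, cultures 1 and 2) and 18.3 and 80.2 FPKM (B10-). The log2 difference was -0.34 ± 0.01 (SD, n = 2 cultures; limma adjusted p = 0.349 with the replicate block). The groups overlapped, since both libraries of culture 2 lay far above both of culture 1.

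Hnrnpd, known as Auf1, speeds or slows the decay of AU-rich mRNAs, including those of cytokines. It was at 6.22 and 25.6 FPKM (B10+, cultures 1 and 2) and 6.74 and 26.3 FPKM (B10-). Its close relative Hnrpdl was at 120 and 92.3 FPKM (B10+) and 127 and 111 FPKM (B10-). Both were lower in B10+ cells in both cultures, and neither passed the test.

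The hnRNP F and H proteins bind runs of guanines. Hnrnpf had the highest mean of all members, at 606 and 442 FPKM (B10+) and 614 and 487 FPKM (B10-). Hnrnph2, on the X chromosome, was at 64.8 and 68.8 FPKM (B10+) and 101 and 83.1 FPKM (B10-), with both B10+ libraries the lower ones. Its log2 difference was -0.45 ± 0.26 (SD, n = 2 cultures; limma adjusted p = 0.301 with the replicate block), the largest among members lower in B10+ cells after Hnrnpa1.

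Hnrnph1, the close relative of Hnrnph2, was at 105 and 110 FPKM (B10+) and 124 and 120 FPKM (B10-). Its groups did not overlap either, at a log2 difference of -0.18 ± 0.08 (SD, n = 2 cultures; limma adjusted p = 0.536 with the replicate block). Hnrnph3 was low, between 1.299 and 2.31 FPKM in the 4 libraries. It was lower in B10+ cells in culture 1 and higher in culture 2.

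Hnrnpc, which coats uridine tracts, and Hnrnpk, which binds cytosine-rich RNA, were lower in B10+ cells in both cultures without passing the test. Hnrnpc was at 78.7 and 133 FPKM (B10+) and 85.1 and 171 FPKM (B10-). Hnrnpk was at 241 and 169 FPKM (B10+) and 282 and 195 FPKM (B10-), a log2 difference of -0.22 ± 0.01 (SD, n = 2 cultures; limma adjusted p = 0.475 with the replicate block). Hnrnpr was also lower, at 57.6 and 78.3 FPKM (B10+) and 73.3 and 89.4 FPKM (B10-), with a log2 difference between -0.48 and -0.0479 when 1 library at a time was left out.

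The Hnrnpk gene hosts a precursor of the microRNA miR-7a, which has a row of its own, Mir7-1. The table gives Mir7-1 (mm9, chr13:58494140-58494247) at 0 and 216 FPKM (B10+) and 195 and 201 FPKM (B10-). The row spans 108 bases, and in so short a row a single fragment is worth many FPKM. The rows of the other miR-7 genes, Mir7-2 and Mir7b, were listed at 0 in all 4 libraries. The total RNA libraries do not separate mature miRNA from host transcript, and the value at this row is no measure of miR-7a itself. The mature strands of the Mir7-1 hairpin are printed from RefSeq (GRCm38.p6), with the seed, bases 2 to 8, in capitals.

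mmu-miR-7a-5p, chr13:58392841-58392863, minus strand: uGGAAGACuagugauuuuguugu
mmu-miR-7a-1-3p, chr13:58392800-58392821, minus strand: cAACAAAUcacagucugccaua

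The seeds of the 2 strands differ, so they belong to separate seed groups. The Hnrnpk row itself was measured at 169 FPKM or more in all 4 libraries, including the B10+ library of culture 1, where Mir7-1 was at 0. With the FPKM of Mir7-1 and Rmi1 added to the Hnrnpk row, culture 1 gave a log2 difference of -0.97 and culture 2 one of -0.03, with a mean of -0.50 (limma adjusted p = 0.436 with the replicate block).

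Hnrnpu, Hnrnpul1 and Hnrnpul2 make up the hnRNP U group, named for a large protein that binds both RNA and nuclear scaffold DNA. Hnrnpu was at 380 and 556 FPKM (B10+) and 344 and 545 FPKM (B10-), close within each culture. Hnrnpul2 was at 15.3 and 34.1 FPKM (B10+) and 13.6 and 25.3 FPKM (B10-). Hnrnpul1 lay between 42.9 and 73.5 FPKM and differed in direction between the cultures.

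Hnrnpm and Hnrnpl complete the hnRNP members. Hnrnpm, which represses exons through GU-rich sites, was at 115 and 100.5 FPKM (B10+) and 87.9 and 92.2 FPKM (B10-). Its groups did not overlap, with a log2 difference of 0.25 ± 0.18 (SD, n = 2 cultures; limma adjusted p = 0.456 with the replicate block). Hnrnpl had a log2 difference of 0.29 ± 0.05 (SD, n = 2 cultures; limma adjusted p = 0.375 with the replicate block), with the same direction in both cultures. It was 0.0813 without the B10- library of culture 2 and 0.50 without that of culture 1, and 0.12 and 0.46 without the B10+ library of culture 1 and of culture 2.

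No SR gene passed the test. Their log2 differences ran between -0.28 and 0.33, and the median of their sizes was 0.14, against 0.24 for the hnRNP genes and 0.20 for all tested entries, with the difference between the families not tested. Srsf7 was at 242 and 231 FPKM (B10+, cultures 1 and 2) and 231 and 244 FPKM (B10-). Srsf6 was at 169 and 196 FPKM (B10+) and 170 and 192 FPKM (B10-). For Srsf7 and Srsf6 the 95% intervals of the log2 difference with the culture block were -0.36 to 0.35 and -0.33 to 0.35.

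Srsf1, the founding member of the family, was at 279 and 188 FPKM (B10+) and 238 and 184 FPKM (B10-). It was the only SR gene higher in B10+ cells in both cultures, with a log2 difference of 0.13 ± 0.14 (SD, n = 2 cultures). Srsf3, the smallest SR protein, was at 214 and 172 FPKM (B10+) and 197 and 201 FPKM (B10-), and differed in direction between the cultures.

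Srsf2, which recognizes both C-rich and G-rich exon elements, had the highest mean of the SR genes. It was at 181 and 390 FPKM (B10+) and 250 and 415 FPKM (B10-), a log2 difference of -0.28 ± 0.27 (SD, n = 2 cultures; limma adjusted p = 0.464 with the replicate block). Srsf5 was at 258 and 146 FPKM (B10+) and 277 and 180 FPKM (B10-). Srsf10, an SR protein that represses splicing when it loses its phosphates, was at 105 and 155 FPKM (B10+) and 111 and 179 FPKM (B10-). Sfrs18 was the other SR gene lower in both cultures, at 18.3 and 26.4 FPKM (B10+) and 25.4 and 28.2 FPKM (B10-), with a log2 difference between -0.52 and -0.0195 when 1 library at a time was left out.

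Srsf9 had the largest difference of an SR gene in a single culture. It was at 87.4 and 43.9 FPKM (B10+, cultures 1 and 2) and 52.8 and 45.4 FPKM (B10-). Its log2 difference of 0.72 in culture 1 stood against -0.05 in culture 2, so the 2 cultures did not show the same difference. Srsf11 lay between 96.9 and 115 FPKM in the 4 libraries. Srsf4 was at 10.4 and 28.9 FPKM (B10+) and 10.6 and 21.9 FPKM (B10-).

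**Figure D4:**
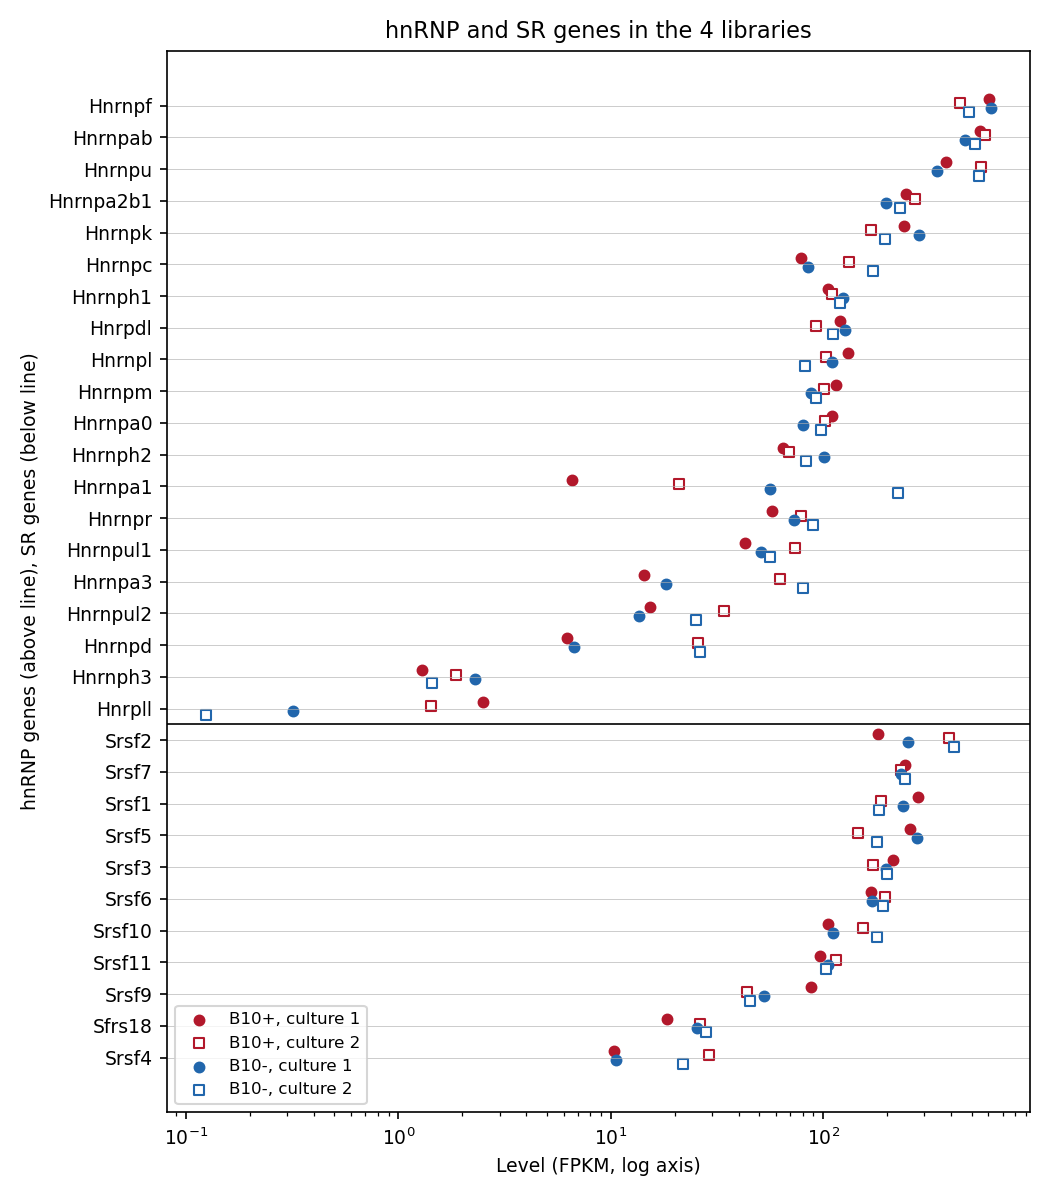
Level of each tested gene in the 4 libraries on a log axis of FPKM, with B10+ in red, B10- in blue, culture 1 filled and culture 2 open. Most genes lie between 40 and 620 FPKM with the 4 points close together, while Hnrpll and the Hnrnpa1 row spread between the subsets and Hnrnpa3 and Hnrnpd between the cultures.

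More members were separated by culture than by subset, as were more of all tested entries. By subset, 5 members lay above and 3 below without overlap, against 6.6% and 7.47% of all tested entries. Both libraries of culture 2 lay above both libraries of culture 1 for 12 of 31 members, against 28.7% of all tested entries, and below for 7 of 31, against 51.7%. The median difference (culture 2 minus culture 1, log2) was 0.12 over the members and -0.31 over all tested entries. Differences of more than 2-fold with no overlap were found for 3 members higher in culture 2, against 11.6% of entries, and for 0 members lower in culture 2, against 23.4%. These 3 were Hnrnpa3, Hnrnpd and Srsf4, with log2 differences of 2.07, 1.85 and 1.19.

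The step between cultures was alike in both subsets for Hnrnpa3 and Hnrnpd, while for Srsf4 it was 1.39 in B10+ and 0.98 in B10- libraries on the log2 scale. Hnrnpa3 was at 62.8 and 80.2 FPKM in the B10+ and B10- libraries of culture 2, against 14.3 and 18.3 FPKM in culture 1. Hnrnpd was at 25.6 and 26.3 FPKM in culture 2, against 6.22 and 6.74 FPKM in culture 1. Srsf5 had the largest difference in the other direction, at 146 and 180 FPKM in culture 2 against 258 and 277 FPKM in culture 1. Proliferation markers were lower in culture 2, with a median log2 difference of -3.07 over 8 genes, and their part in the differences between cultures was not tested. The libraries of a culture may also share handling, which cannot be told apart from the culture.

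**Figure D5:**
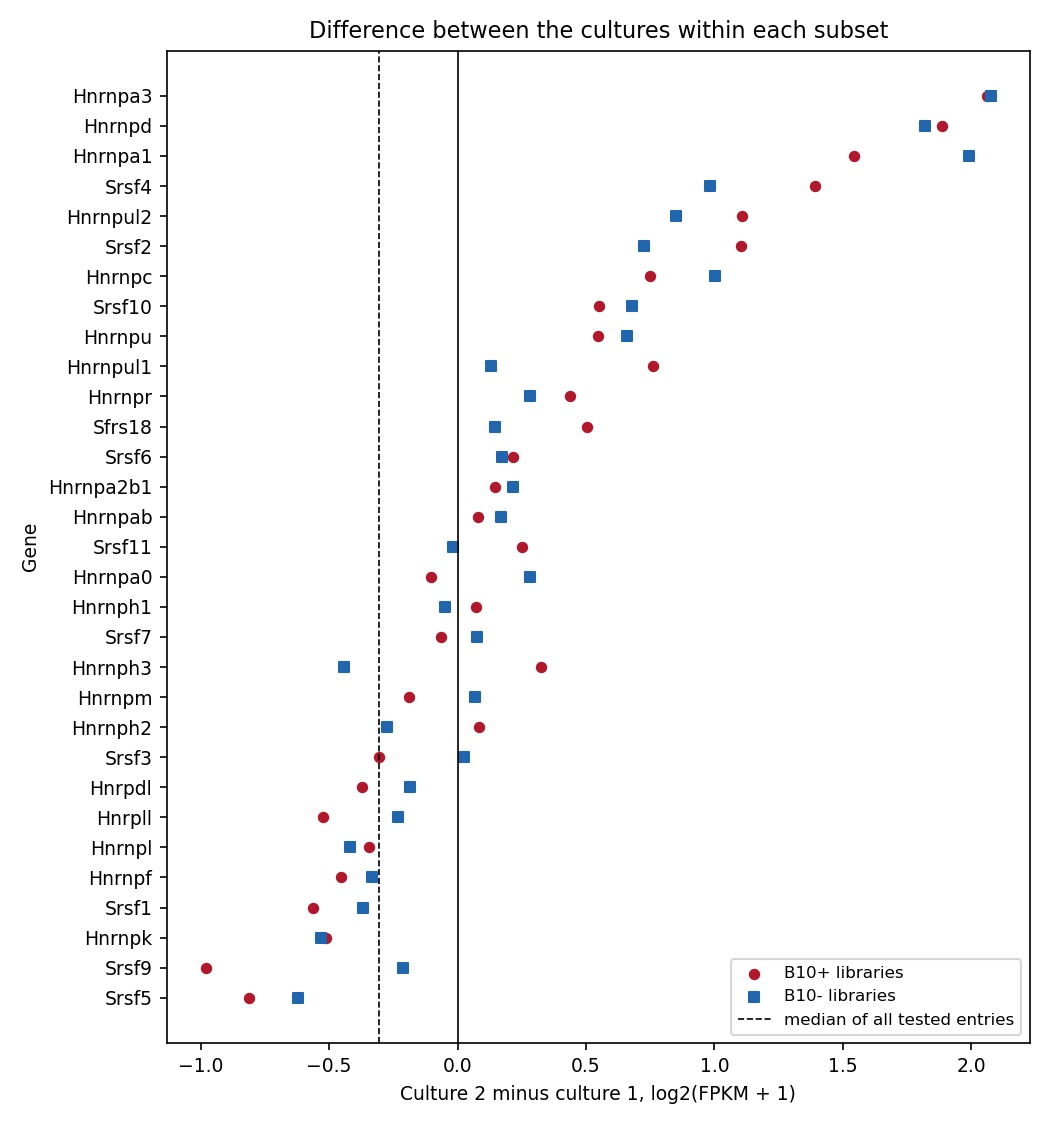
Difference between culture 2 and culture 1 in log2(FPKM + 1) for each tested gene, within B10+ libraries (red circles) and B10- libraries (blue squares). Hnrnpa3, Hnrnpd and the Hnrnpa1 row stand at the top, Srsf5 at the bottom, and most genes lie to the right of the dashed line, the median of all tested entries at -0.31.

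The other genes of the splicing pathway gave no call either. The lists were 13 SR protein kinases, phosphatases and import factors, 23 SR-related and Tra2 proteins, 31 tested hnRNP-like proteins under other names, 51 core spliceosome proteins and 17 nonsense-mediated decay factors. Over these lists limma called 0 genes in either direction, with or without the replicate block. At an unadjusted p under 0.05 the fit with the block held 2, 0, 5, 0 and 0 genes in that order, against 15.2% of all tested entries and 3 of the 31 hnRNP and SR members.

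Among the kinases and phosphatases, Ppp1ca, a catalytic subunit of protein phosphatase 1, was at 525 and 101 FPKM (B10+) and 390 and 72.8 FPKM (B10-). Srpk2, a kinase of the SR tail, was at 5.34 and 2.74 FPKM (B10+) and 3.77 and 1.59 FPKM (B10-). Prpf4b, a nuclear kinase of splicing factors, was at 55.2 and 77.7 FPKM (B10+) and 61.9 and 89.1 FPKM (B10-). Over the list 5 of 13 genes were higher and 4 lower in B10+ cells in both cultures, against 33.4% and 31.8% of all tested entries.

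Among the hnRNP-like proteins, Celf2, a splicing regulator known from T cells, was at 23.6 and 46.4 FPKM (B10+) and 13.3 and 9.88 FPKM (B10-). Its log2 difference was 1.45 ± 0.95 (SD, n = 2 cultures; limma adjusted p = 0.205 with the replicate block). Fubp1 was at 71.3 and 99.98 FPKM (B10+) and 89.4 and 132 FPKM (B10-), while Pcbp3 was at 0.547 and 1.72 FPKM (B10+) and 1.65 and 2.50 FPKM (B10-). Over the list 7 of 31 genes were higher and 12 lower in both cultures, against 33.4% and 31.8% of all tested entries.

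Of 51 core spliceosome genes 27 were lower and 2 higher in B10+ cells in both cultures, none of them past the test, with a median log2 difference of -0.10. Across all tested entries 31.8% were lower and 33.4% higher in both cultures, and the median was 0.00. The genes with the smallest p were Dhx8 and Dhx38, RNA helicases, and Snrpa, a protein of the U1 particle, with log2 differences of -0.34, -0.32 and -0.30. SR-related proteins (2 higher, 9 lower of 23) and nonsense-mediated decay factors (3 higher, 8 lower of 17) had medians of -0.10 and -0.19. Rbm25, Cwc22 and Luc7l of the first list and Smg6 and Smg1 of the second had log2 differences between -0.40 and -0.27.

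Between cultures the lists did not move together. The median log2 difference (culture 2 minus culture 1) was 0.58 for SR-related proteins and 0.34 for hnRNP-like proteins. It was -0.49 for core spliceosome genes and -0.64 for the kinases, phosphatases and import factors. Between these lists lay the nonsense-mediated decay factors, at 0.21, and the hnRNP and SR members, at 0.11 and 0.12.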

How the data were processed

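RNA of 4 libraries was measured, 2 of B10+ and 2 of B10- cells. The authors deposited 1 table of 23699 entries in FPKM, with 1 column per library, per the file headers and the unit given on the workbook's second sheet. Per the submitters' processing notes, the tools were bcl2fastq 1.8.4, TopHat 1.3.2, DESeq and Cufflinks 2.1.1 and the build was mm9, with no role given. Ribosomal RNA was depleted, per the labels' protocols. Aligner settings, annotation and strand are steps the sources used here do not give. FPKM is relative within a library. Whether the cultures came from separate animals is not stated, so p-values measure the spread between these libraries.

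Entries with at least 1 FPKM in 2 libraries (10367) were tested as log2(FPKM + 1) with limma-trend (limma 3.58.1, R 4.3.3), two-sided; p-values were adjusted by Benjamini-Hochberg across these entries, at a threshold of 0.05. The planned main fit had no term for the culture; a second fit took culture as replicate block. Pairing comes from the labels: each culture gave 1 library of each subset. Libraries of 1 culture deviated together (r = 0.865 across entries). The block leaves 1 residual degree of freedom, so its p-values rest largely on the spread over all genes. Starts of mm9 loci are printed with 1 added. Reference sequences and transcript classes (GRCm38) were matched by symbol or synonym for 32 members. Named genes are all members, the rows overlapping them that reach 1 FPKM in any library, Il10 and Cd5, and the 3 companion genes per list with the smallest p in the blocked fit. A sort marker and 1 companion gene are not reported here. Members and lists were chosen with earlier results of these data known. Alternatives were other scalings, pseudocounts and filters, summed overlapping rows, and leaving out each library.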

Additional observations from a re-analysis of the deposited data

How the results depend on the processing

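With no culture term limma called 0 entries and 0 members. The replicate block called 89 entries and 1 member, Hnrnpa1; with summed overlapping rows it called 88 entries and 0 members. The block with quantile normalization, median-of-ratios scaling or a pseudocount of 0.1 called 190, 134 and 60 entries, and 1 member each. Without the block, median-of-ratios scaling and the pseudocount of 0.1 called 1 entry each. Leaving out 1 library at a time gave 4 to 144 entries and 0 to 1 member: 4 without B10+ replicate 1, 5 without B10+ replicate 2, 11 without B10- replicate 2, and 144 with Hnrnpa1 among them without B10- replicate 1, each with the lone library assumed to vary like the others. The members' median log2 difference, -0.053 in the planned fit, was -0.0904 under quantile normalization and -0.1141 under median-of-ratios scaling, alike with the block. These scalings moved the median of all entries to -0.0717 and -0.0509. With a library left out the members' median was -0.1066 to 0.1222. Srsf11 turned to -0.0422 under median-of-ratios scaling, and Srsf6 to -0.0214 under quantile normalization and -0.0481 under median-of-ratios scaling, each alike with the block. The other 29 members kept their sign under every setting that kept all libraries and in which they were tested; Hnrnph3 and Hnrpll were not tested under the filter of 5 FPKM. Sizes moved more than signs. Quantile normalization gave Hnrnpab 0.0652, Hnrnpf -0.24, Hnrnph3 -0.31, Hnrnpu 0.0237, Srsf1 0.0506 and Srsf5 -0.31. Median-of-ratios scaling gave Hnrnpu 0.0242 and Srsf1 0.0679. It also gave Hnrnpul1 0.0063, Srsf7 -0.0677 and Hnrnpd -0.1250, against 0.0664, -0.0061 and -0.0685 in the planned fit. Summed rows gave Hnrnpk -0.50, and the pseudocount of 0.1 gave Hnrpll 2.70. Without 1 library the subsets are no longer balanced over cultures, and 20 members changed sign in some such fit; their log2 differences ran as follows: Hnrnpa3 -1.38 to 0.70, Hnrnpc -0.74 to 0.26, Hnrnpd -1.01 to 0.87, Hnrnpf -0.31 to 0.15, Hnrnph3 -0.36 to 0.0787, Hnrnpk -0.48 to 0.0505, Hnrnpu -0.24 to 0.42, Hnrnpul1 -0.31 to 0.45, Hnrnpul2 -0.27 to 0.84, Hnrpdl -0.36 to 0.0095, Srsf1 -0.15 to 0.41, Srsf10 -0.48 to 0.20, Srsf11 -0.11 to 0.14, Srsf2 -0.83 to 0.27, Srsf3 -0.21 to 0.10, Srsf4 -0.52 to 0.88, Srsf5 -0.61 to 0.20, Srsf6 -0.0955 to 0.12, Srsf7 -0.0439 to 0.0317, Srsf9 -0.16 to 0.82. Of those that kept their sign, Hnrnpl ran from 0.0813 to 0.50, Hnrnpr from -0.48 to -0.0479, Sfrs18 from -0.52 to -0.0195, Hnrnpa0 from 0.11 to 0.40, Hnrnpa2b1 from 0.17 to 0.38, Hnrnpab from 0.12 to 0.29 and Hnrnpm from 0.16 to 0.35. The unknown depth, 2 cultures and gene-level values limit what can be seen, and low genes such as Hnrpll are understated on this scale.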
